A study of Homo sapiens with 11 samples.

Results

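The comparison set the intervals pulled down by an antibody against mdig, named MINA in the labels, against the H3K4me3 intervals of the same wild-type (WT) cells. Every MINA and H3K4me3 interval of the WT lists on chromosomes 1 to 22 and X was taken, which gave 16353 MINA and 19210 H3K4me3 intervals, together 35563 of the 229591 intervals in the 10 ChIP lists of the series. The cells were MDA-MB-231, an established human line of triple-negative breast cancer. Beside the WT libraries, the matching libraries of knockout (KO) cells were read as a control for the antibody. Per the labels' protocols KO and WT cells alike were made with CRISPR-Cas9 and grown in medium with blasticidin. The KO cells lack mdig protein and the WT cells have it at a normal level. Whether either line goes back to 1 clone is not given in the sources used here. Each antibody was used once per genotype, so there were no replicates, no test was run, and every value describes these libraries alone.

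Mdig, also called MINA53 or RIOX2, is an oxygenase with a JmjC domain that is known to hydroxylate a histidine of a ribosomal protein and has also been linked to histone methylation. H3K4me3 is the mark of active promoters, and it is laid down on the nucleosomes that flank the start of a transcribed gene. It forms narrow blocks at most promoters and broader ones at highly transcribed genes. H3K36me3 is laid down behind elongating polymerase over the bodies of transcribed genes, so the side of a promoter on which it lies can serve as a guide to the direction of transcription where no annotation is at hand. H3K9me3 and H4K20me3 are marks of silent chromatin.

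An interval is a stretch called as enriched in 1 library, with a start and an end on a 200-bp grid and no height or score. The MINA list of KO cells held 7859 intervals over 35.7 Mb with a median width of 3.0 kb, and it shows what the antibody returned where the labels report no mdig. The MINA list of WT cells covered 119.6 Mb with a median width of 4.6 kb (quartiles 2.6 and 9.0 kb). The H3K4me3 list of WT cells covered 120.7 Mb, or 3.98% of the chromosomes, with a median width of 5.4 kb (3.0 and 7.8 kb). The read depth behind the lists is unknown. More reads or better enrichment give more and wider intervals, and in these lists that cannot be told apart from a difference in binding. The ranges printed in brackets after shares are 95% Wilson intervals and cover counting error only.

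MINA intervals lay mostly on H3K4me3 in both genotypes. In KO cells 82.8% of the MINA intervals overlapped the H3K4me3 of the same cells by at least 1 bp, and 34.7% of those H3K4me3 intervals held MINA. In WT cells 11722 of the 16353 MINA intervals (71.7%) overlapped H3K4me3, and 10916 of the 19210 H3K4me3 intervals (56.8%) overlapped MINA. By length the KO lists shared 24.7 Mb, which was 69.3% of the KO MINA and 24.3% of the KO H3K4me3. The WT lists were about equal in length and shared 59.4 Mb, which was 49.7% of the MINA and 49.2% of the H3K4me3, a mark that covers 3.98% of the chromosomes. MINA without mdig thus covered less of H3K4me3 and lay on it to a larger share.

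Of the WT MINA intervals, the 10000 with no counterpart in the KO list lay on H3K4me3 in 57.5% of cases (56.6% to 58.5%), and the 6353 that overlapped a KO MINA interval in 94.0% (93.3% to 94.5%). MINA intervals called in WT alone were therefore less often at H3K4me3 than those also called in the absence of mdig. With the shared ones left out, 28.6% of the H3K4me3 intervals held MINA.

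The share of H3K4me3 intervals with MINA was higher in each wider class of H3K4me3, for the MINA list of either genotype. The KO list overlapped 31.8% of all WT H3K4me3 intervals, with 1.49% of the 2483 under 2 kb, 8.06% of the 4047 from 2 to under 4 kb, 30.3% of the 4142 from 4 to under 6 kb, 45.0% of the 3823 from 6 to under 8 kb, 52.9% of the 3043 from 8 to under 12 kb and 69.5% of the 1672 of 12 kb or more. The WT list overlapped 5.80% (4.95% to 6.79%), 22.8%, 58.8%, 79.5%, 90.4% and 97.2% (96.3% to 97.9%) of the same 6 classes. No Wilson interval of a WT share overlapped that of the next class. When the H3K4me3 intervals of the KO cells themselves were classed by width, KO MINA overlapped 1.91% under 2 kb and 79.0% at 12 kb or more. The order of the classes was therefore also seen in cells without mdig.

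A wide interval offers more room for an overlap, so the central 200-bp window of each H3K4me3 interval was read as well, since it has the same size in every class. It lay in KO MINA in 1.25%, 6.20%, 24.0%, 37.1%, 40.6% and 40.5% of the intervals from the narrowest to the widest class. It lay in WT MINA in 5.36%, 19.2%, 48.7%, 68.7%, 77.7% and 80.7%. By this measure the last 2 classes were close in both genotypes, and in WT their Wilson intervals overlapped (76.2% to 79.2% at 8 to under 12 kb, and 78.8% to 82.6% at 12 kb or more). The part of the H3K4me3 length that lay in WT MINA was 5.57% under 2 kb and 78.3% at 12 kb or more.

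**Figure D1:**
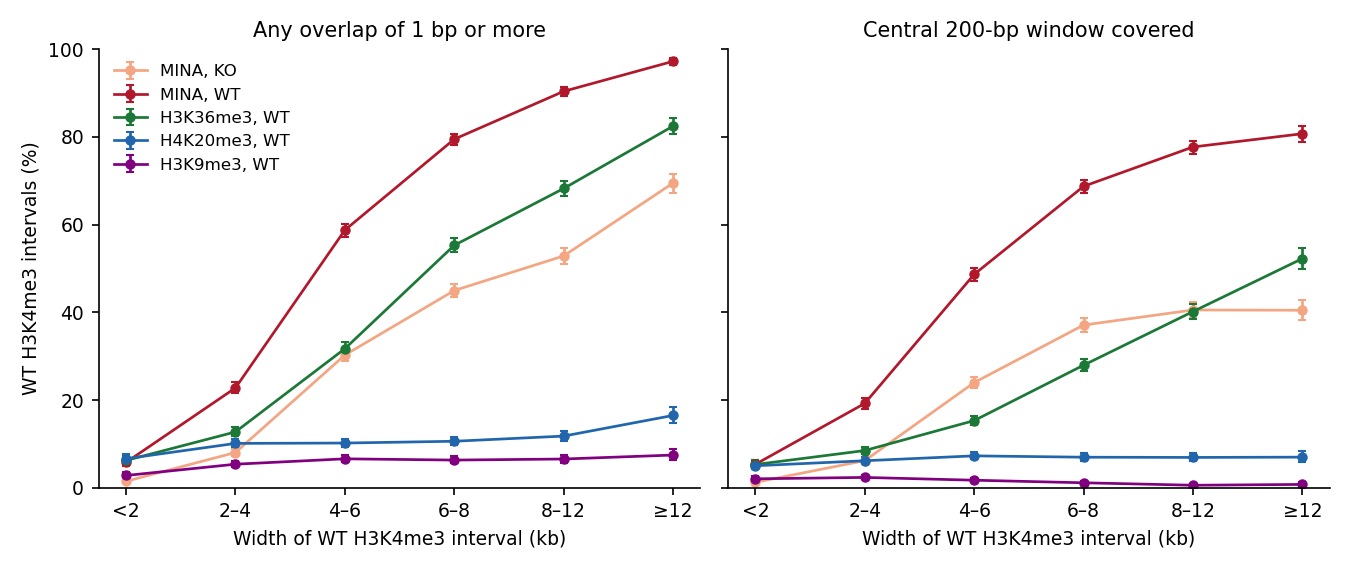
The share of WT H3K4me3 intervals (vertical axis, percent) that overlap an interval of each list by 1 bp or more (left) or whose central 200-bp window it covers (right), by H3K4me3 width in kb, with 95% Wilson intervals as bars. MINA of WT cells climbs from 5.80% to 97.2% on the left and from 5.36% to 80.7% on the right, above every other list from 2 kb on, while H4K20me3 and H3K9me3 stay near the bottom.

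The WT MINA intervals were then split by whether the KO list held them. Those not in KO overlapped 4.95% of the H3K4me3 intervals under 2 kb, 17.0% from 2 to under 4 kb, 31.7% from 4 to under 6 kb, 36.1% from 6 to under 8 kb, 40.6% from 8 to under 12 kb and 44.4% from 12 kb. Those also in KO overlapped 0.846%, 5.81%, 27.3%, 43.9%, 53.5% and 71.8%. Below 6 kb the intervals not in KO were the more frequent kind, and from 6 kb on those also in KO were. By the central window the MINA intervals not in KO were lower in the widest class, with 31.8% at 8 to under 12 kb and 24.2% at 12 kb or more. Those also in KO were higher there, with 45.9% and 56.6%. An overlap of 1 bp with a KO interval was enough to count a MINA interval as also in KO, whatever its width.

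Among the other WT lists H3K36me3 showed a similar order, while both marks of silent chromatin had a far narrower range. H3K36me3 touched 39.3% of all H3K4me3 intervals, 6.24% under 2 kb and 82.5% at 12 kb or more. Its central window share was lower than that of MINA from 2 kb on, and in the widest class it was 80.7% for MINA and 52.3% for H3K36me3. H3K9me3 touched 5.88% of all H3K4me3 intervals and lay between 2.82% and 7.48% in the 6 classes. H4K20me3 touched 10.6% of them, from 6.65% under 2 kb to 16.5% at 12 kb or more, and its central window share stayed between 5.03% and 7.29%.

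Within each width class under 12 kb, MINA was more frequent where H3K4me3 touched H3K36me3. From 4 to under 6 kb it was found on 73.6% of the 1314 H3K4me3 intervals with H3K36me3 (71.1% to 75.9%) and on 51.9% of the 2828 without it (50.03% to 53.7%). From 2 to under 4 kb the shares were 32.2% with and 21.4% without H3K36me3, and from 8 to under 12 kb they were 92.7% and 85.4%. At 12 kb or more they were 97.5% and 95.9%, with overlapping Wilson intervals. The classes did not make widths fully equal. The median H3K4me3 width with and without H3K36me3 was 5.2 and 4.8 kb from 4 to under 6 kb. It was 3.0 and 2.8 kb from 2 to under 4 kb, and 9.2 kb for both from 8 to under 12 kb. With H4K20me3 the shares were closer in the wider classes. Under 2 kb MINA was found on 16.4% of the H3K4me3 intervals with H4K20me3 (11.5% to 22.8%) and on 5.05% of those without it (4.23% to 6.02%). From 2 to under 4 kb the shares were 27.6% with and 22.2% without H4K20me3, from 4 to under 6 kb 64.3% and 58.1%, and from 6 to under 8 kb 83.5% and 79.0%. From 8 to under 12 kb they were 86.6% and 90.9%, and at 12 kb or more 96.0% and 97.5%, with overlapping Wilson intervals in each class from 2 kb on. For H3K9me3 the Wilson intervals of intervals with and without the mark overlapped in all 6 classes.

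H3K4me3 intervals that were no longer called in KO cells held MINA less often from 4 to under 12 kb. Of those from 4 to under 6 kb MINA lay on 45.1% of the 284 not found in KO and on 59.8% of the 3858 also found there. From 6 to under 8 kb the shares were 66.3% of 86 (55.8% to 75.4%) and 79.8% of 3737 (78.5% to 81.1%). From 2 to under 4 kb they were 20.5% of 1117 and 23.7% of 2930, and under 2 kb 5.87% of 1329 and 5.72% of 1154, with overlapping Wilson intervals in both classes. From 8 to under 12 kb the shares were 72.4% of 29 (54.3% to 85.3%) and 90.6% of 3014 (89.5% to 91.6%). At 12 kb or more MINA lay on all 9 that were missing in KO and on 97.2% of the 1663 found there. The classes did not make widths fully equal here either. The median width of those missing and found in KO was 4.6 and 5.0 kb from 4 to under 6 kb. It was 6.5 and 6.8 kb from 6 to under 8 kb, and 9.6 and 9.2 kb from 8 to under 12 kb.

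Read from the side of MINA, narrow intervals lay on H3K4me3 most often and with most of their length. MINA intervals under 2 kb lay on H3K4me3 in 78.3% of cases and those of 2 to under 4 kb in 80.01%, against 60.1% at 8 to under 12 kb and 70.7% at 12 kb or more. The centre of the MINA interval lay in H3K4me3 in 77.5% of the narrowest and 44.9% of the widest class. Of the MINA length 78.3% lay on H3K4me3 under 2 kb and 42.8% at 12 kb or more. The share also found in KO was 45.0% under 2 kb, lowest at 26.7% from 8 to under 12 kb, and 44.6% from 12 kb.

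For the geometry, pairs were taken in which 1 MINA interval met exactly 1 H3K4me3 interval and the reverse, which left 9089 pairs. MINA lay inside H3K4me3 in 5812 of them (63.9%, 63.0% to 64.9%). It reached past 1 edge in 2042 (22.5%, 21.6% to 23.3%), 1035 times at the lower coordinate and 1007 times at the higher one. It spanned H3K4me3 with both edges outside or 1 edge shared in 1212 (13.3%, 12.7% to 14.05%), and both edges were the same in 23. MINA was the narrower partner in 75.6% of the pairs and the wider one in 23.2%. The median ratio of MINA to H3K4me3 width was 0.549 (quartiles 0.35 and 0.969). Across the pairs the log2 widths had a Pearson r of 0.417 and the widths a Spearman rho of 0.415, over pairs that share both libraries and with no test.

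The placement classes differed in size. In pairs with MINA inside, the median widths were 2.6 kb for MINA and 6.8 kb for H3K4me3. In pairs with MINA past 1 edge they were 6.8 kb for MINA and 7.0 kb for H3K4me3, and MINA reached past the edge by a median of 1.4 kb, with a 90th percentile of 7.6 kb. Where MINA spanned, the medians were 12.8 kb for MINA and 6.2 kb for H3K4me3, and MINA stood out by 5.8 kb in sum over both edges. The median H3K4me3 width was thus similar in all 3 placements, and the MINA width was not.

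MINA lay inside most often at H3K4me3 of middle width. The share inside was 10.2% of the 128 pairs under 2 kb, 40.8% of 822 from 2 to under 4 kb, 70.3% of 2278 from 4 to under 6 kb, 74.7% of 2855 from 6 to under 8 kb, 64.5% of 2244 from 8 to under 12 kb and 37.3% (33.9% to 40.8%) of 762 from 12 kb. MINA spanned 59.4% of the narrowest H3K4me3 and 27.4% of the widest, with the lowest share of 6.94% at 6 to under 8 kb. The median MINA width in these pairs was 3.6, 3.0, 2.4, 3.2, 5.0 and 14.4 kb from the narrowest to the widest class. At 4 to under 8 kb a MINA interval was therefore clearly smaller than its H3K4me3 interval, whereas at 12 kb or more both had a median of 14.4 kb in these pairs. The pairs held 2855 of the 3039 H3K4me3 intervals with MINA at 6 to under 8 kb, but 762 of 1626 from 12 kb. In that widest class 688 held 2 or more MINA intervals and were left out of the pairs. This limit also applies to the offsets and directions by width given below.

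MINA of KO cells lay inside H3K4me3 more often than MINA of WT cells. Of 5693 one-to-one pairs of the KO lists 78.9% (77.9% to 79.98%) had MINA inside, against 63.9% in WT. Past 1 edge it lay in 17.1% of the KO pairs and 22.5% of the WT pairs, and it spanned H3K4me3 in 3.88% of the KO pairs and 13.3% of the WT pairs. Among the WT pairs, the 4405 whose MINA interval was not in KO had it inside in 54.2% and spanning in 18.4%. The 4684 whose MINA interval was also in KO had it inside in 73.1% and spanning in 8.54%. MINA that passes the edges of H3K4me3 was thus more frequent among the intervals that were not called without mdig. The widths differed between these groups as well. MINA was the narrower partner in 91.0% of the KO pairs and 75.6% of the WT pairs. Among pairs with MINA narrower, it lay inside in 86.8% in KO (85.8% to 87.7%) and 84.6% in WT (83.7% to 85.4%). WT MINA not in KO was narrower in 66.9% of its pairs, and 81.0% of these had it inside. For WT MINA also in KO the shares were 83.8% and 87.2%.

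The centres of both intervals lay close together. The median absolute distance between the MINA and the H3K4me3 centre was 800 bp in KO pairs (quartiles 400 and 1400 bp) and 800 bp in WT pairs (400 and 1600 bp). In WT it was at most 200 bp in 18.0% of the pairs, at most 1000 bp in 60.6% and at most 5000 bp in 95.9%. Along the chromosome the offset had no side, with a median of 0, 48.4% of WT MINA centres at the lower and 47.7% at the higher coordinate. By H3K4me3 width the WT distance was smallest at 4 to under 6 kb, with 600 bp, and reached 1100 bp at 8 to under 12 kb and 2200 bp from 12 kb.

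A MINA interval inside H3K4me3 can move only as far as the H3K4me3 width leaves room. In the 5812 inside pairs the offset was a median of 0.333 of that room, and in 67.7% it was under 50% of it. An edge was shared in 2.10%. MINA inside H3K4me3 was therefore found nearer to the middle than to an edge in most pairs.

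**Figure D2:**
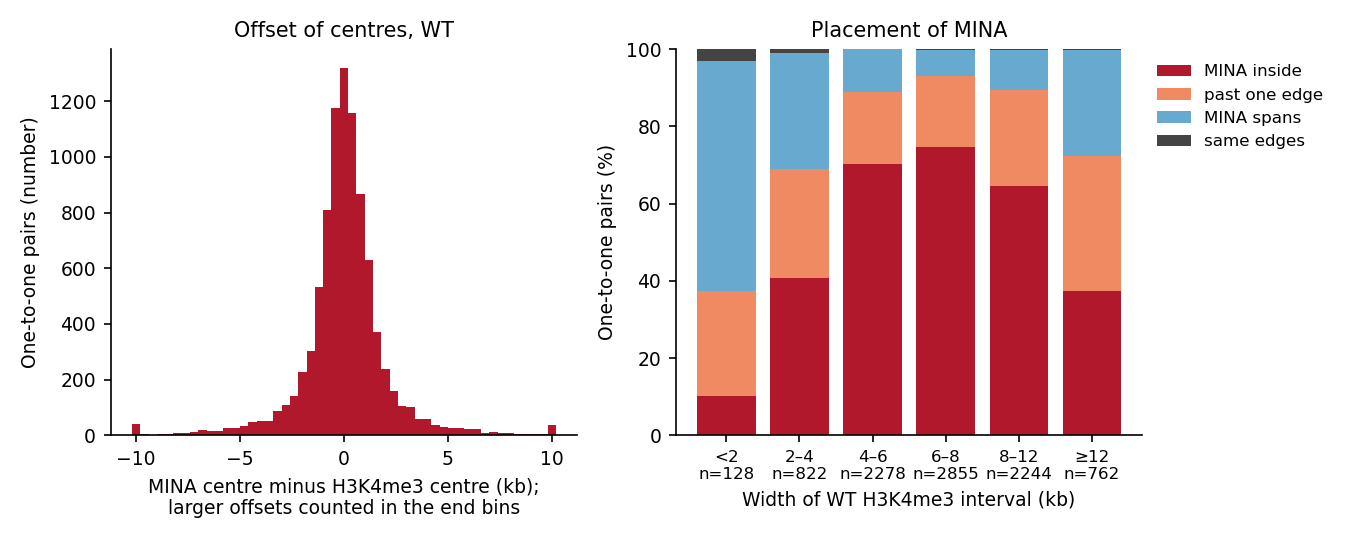
Left, the number of one-to-one WT pairs by the MINA centre minus the H3K4me3 centre in kb, with larger offsets counted in the end bins; right, the share of pairs (percent) with MINA inside, past 1 edge, spanning or with the same edges, by H3K4me3 width in kb. The offsets pile up around 0 with even flanks, and the inside share is highest, at 74.7%, for H3K4me3 of 6 to under 8 kb.

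H3K36me3 was used to give the pairs a direction. An H3K4me3 interval has an H3K36me3 side when a WT H3K36me3 interval reaches past 1 of its edges or begins within 10 kb of it, and none does so at the other edge. Of the 9089 pairs 4305 had such a side, and in 4150 of these the MINA centre was off the H3K4me3 centre. The MINA centre lay toward the H3K36me3 side in 1490 (35.9%, 34.5% to 37.4%) and away from it in 64.1%. Counted as positive toward H3K36me3, the median offset was -400 bp (quartiles -1100 and 400 bp). The offset that had no side along the chromosome thus had one along the direction set by H3K36me3.

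The direction changed with H3K4me3 width. MINA lay toward H3K36me3 in 31.4% of the pairs with H3K4me3 from 2 to under 4 kb, 27.5% from 4 to under 6 kb, 35.8% from 6 to under 8 kb and 38.2% from 8 to under 12 kb. From 12 kb on it did so in 52.1% (47.1% to 57.0%), a share whose Wilson interval holds 50%. By placement it was 32.8% where MINA lay inside and 53.0% (47.9% to 58.1%) where MINA spanned. Where MINA passed 1 edge, that edge was the one on the H3K36me3 side in 351 of 903 pairs (38.9%, 35.7% to 42.1%).

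Measured from the edges, the MINA centre of all 4305 pairs lay a median of 3.1 kb from the edge away from H3K36me3 (quartiles 2.1 and 4.3 kb) and 3.8 kb from the edge on the H3K36me3 side (2.8 and 5.1 kb). At 4 to under 6 kb of H3K4me3 the medians were 2.15 and 2.9 kb, and at 8 to under 12 kb they were 4.1 and 5.0 kb. In the widest class the distances were 7.8 and 7.4 kb. The distance to either edge was therefore larger in each wider class from 2 kb on, and was not fixed for one edge. Both distances of a pair together make up its H3K4me3 width, so a rise with width is in part set by the classes.

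**Figure D3:**
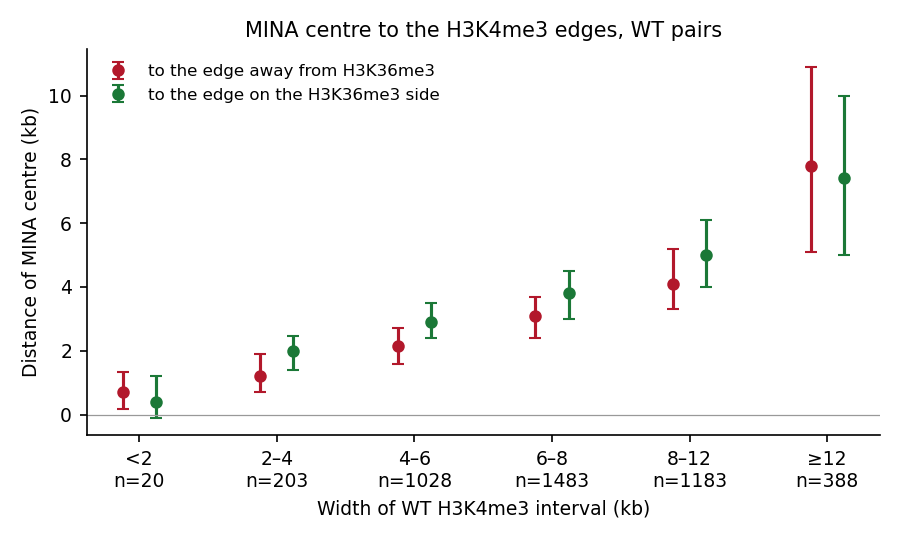
The median distance in kb from the MINA centre to the H3K4me3 edge away from H3K36me3 and to the edge on the H3K36me3 side, by H3K4me3 width in kb, with quartiles as bars, for one-to-one WT pairs with H3K36me3 on 1 side. From 2 to under 12 kb the edge away from H3K36me3 is the nearer one, at medians of 1.2 to 4.1 kb against 2.0 to 5.0 kb, and at 12 kb or more the medians are 7.8 and 7.4 kb.

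The same direction was found without mdig. In the KO lists, with the H3K36me3 of KO cells, 27.5% (25.9% to 29.2%) of 2968 off-centre pairs had MINA toward H3K36me3, with a median offset of -500 bp. In WT, where it was 35.9% for all pairs, the share was 37.3% for MINA intervals not in KO and 35.0% for those also in KO, with overlapping Wilson intervals. Other lists were set against WT H3K4me3 in the same way. The H3K4me3 of KO cells had 56.1% of its centres toward H3K36me3, with a median offset of 100 bp. H4K20me3 had 22.5% of 604 off-centre pairs toward H3K36me3 and H3K9me3 28.8% of only 285 (23.8% to 34.3%). Their median offsets were -2000 and -4100 bp. Both of these marks thus also had most centres away from H3K36me3. Their cover along H3K4me3, given below, differed in shape from that of MINA.

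Averaged over whole intervals, MINA cover formed a hump short of the middle. For this, 5799 H3K4me3 intervals of at least 4 kb with an H3K36me3 side were each cut into equal steps from the edge away from H3K36me3. KO MINA covered 7.0% at the first step, 40.7% at its peak at 42.5% of the width and 5.73% at the last step. WT MINA peaked at the same position with 71.7%, and covered 25.3% and 22.3% at the ends. H3K36me3 covered 0.776% at the first step and 75.1% at the last, which the choice of the side fixes in part. The WT MINA peak was 66.7% from 4 to under 8 kb and 78.2% from 8 to under 12 kb, both at 42.5% of the width.

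At H3K4me3 of 12 kb or more the MINA profile of either genotype was flatter. KO MINA covered 37.7% at the step at 32.5% of the width, 39.8% at its peak at 47.5% and 37.1% at 67.5%. At the ends KO MINA covered 11.8% on the side away from H3K36me3 and 16.6% on the H3K36me3 side, where the 8 to under 12 kb class had 7.60% and 6.13%. WT MINA had a plateau from 78.0% at the step at 22.5% of the width to 77.3% at 72.5%, with a peak of 81.6% at 32.5%. At the same ends WT MINA covered 52.8% and 59.4%, where the 8 to under 12 kb class had 28.9% and 26.4%.

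**Figure D4:**
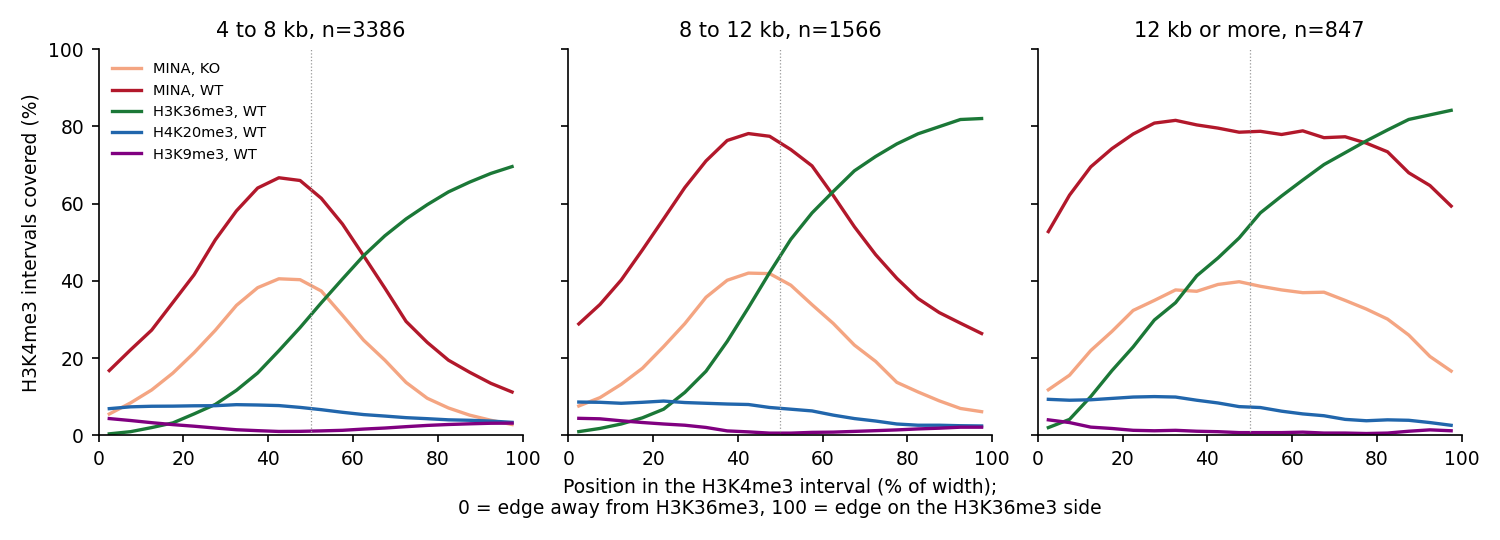
The share of WT H3K4me3 intervals (vertical axis, percent) covered by MINA, H3K36me3, H4K20me3 and H3K9me3 at each step of their width, from the edge away from H3K36me3 (0) to the edge on its side (100), in 3 width classes. Both MINA lists peak at 42.5% of the width in the first 2 panels, with KO MINA below WT MINA throughout. At 12 kb or more they form a plateau, with ends below it but higher than the ends in the first 2 panels.

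Over all 19210 H3K4me3 intervals, whatever their side, MINA of KO cells covered 24.0% of the central windows, 4.52% of the edge windows and 2.56% of the windows 1 kb outside, and MINA of WT cells 48.3%, 19.3% and 14.4%. Relative to the centre, the cover 1 kb outside was smaller in KO than in WT.

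Over all widths MINA was found about as often on H3K4me3 with H3K36me3 on 1 side (76.5% of 6674) as on both sides (75.7% of 2984). It was found less often with H3K36me3 on neither side (37.2% of 9552). The median H3K4me3 width was 6.8 kb with 1 side, 7.4 kb with both and 3.6 kb with neither. From 6 to under 8 kb, where all 3 kinds had a median of 6.8 kb, the shares were 82.6% for 1 side, 85.8% for both and 71.6% (69.0% to 74.0%) for neither. At 12 kb or more they were 96.1%, 98.9% and 97.5%. The order of 1 side and both sides changed with width. From 2 to under 4 kb the shares were 34.4% (30.9% to 38.1%) for 1 side and 25.6% (21.4% to 30.3%) for both. From 8 to under 12 kb they were 90.5% (88.9% to 91.8%) and 95.8% (94.1% to 97.0%).

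The stretches of the 9089 pairs carried different marks. Where MINA and H3K4me3 overlapped, over 39.1 Mb, KO MINA covered 35.0%, H3K4me3 of KO cells 86.6%, H3K36me3 33.9%, H4K20me3 8.36% and H3K9me3 1.87%. The 15.8 Mb of MINA that stood out past H3K4me3 was covered by KO MINA in 10.5%, by KO H3K4me3 in 5.33% and by H3K36me3 in 36.5%, and H3K9me3 took 5.99% of it. The 28.0 Mb of H3K4me3 beside MINA was covered by KO MINA in 9.36%, by KO H3K4me3 in 73.8% and by H3K36me3 in 39.6%. Most of the KO MINA length in these pairs thus lay on the overlap, and the parts of H3K4me3 outside MINA were less often called in KO than the overlap. MINA lay inside H3K4me3 in 63.9% of the pairs, so these parts often held the H3K4me3 edges. The KO H3K4me3 list was also shorter as a whole, with 101.9 Mb against 120.7 Mb in WT. Whether the lower cover has to do with MINA was not tested.

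Several MINA intervals on 1 H3K4me3 interval were a feature of wide H3K4me3. In all, 1157 H3K4me3 intervals held 2 or more MINA intervals, which was 1.86% of the class from 6 to under 8 kb, 11.3% from 8 to under 12 kb and 41.1% (688 intervals) from 12 kb. The 1003 with exactly 2 had a median width of 12.4 kb, the gap between both MINA intervals had a median of 1.0 kb, and the H3K4me3 centre fell into the gap in 234 (23.3%). The H3K4me3 interval with most MINA intervals, 6 of them, was 57.6 kb wide and lay on chr17:7115401-7173000 (hg19). Among those with 5 were chr1:153902001-153968200, of 66.2 kb, and chr2:241495801-241532800, of 37.0 kb.

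In the other direction 484 MINA intervals ran over 2 or more H3K4me3 intervals, with a median width of 20.5 kb. They bridged 538 gaps with a median of 2.9 kb and a 90th percentile of 12 kb, and 49.96% of the bridged length lay on H3K36me3. Short gaps were bridged more often, which the MINA widths fix in part. Only a MINA interval wider than a gap can cover it, and WT MINA had a median of 4.6 kb and a 90th percentile of 15.8 kb. A single MINA interval covered 221 of the 683 gaps under 2 kb between neighbouring H3K4me3 intervals (32.4%), 152 of 828 from 2 to under 5 kb (18.4%), 106 of 1349 from 5 to under 10 kb (7.86%) and 63 of 2280 from 10 to under 20 kb (2.76%). The widest of the 6 MINA intervals over 4 H3K4me3 intervals, chr7:100129001-100261800, measured 132.8 kb. Another 2 of them were chr12:49355801-49398400, of 42.6 kb, and chr9:133786401-133823000, of 36.6 kb.

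Once width was taken into account, how far H3K4me3 intervals lay from each other made little difference from 4 to under 12 kb. It made more under 4 kb and at 12 kb or more. MINA was found on 67.8% of those with a neighbour under 5 kb away and on 46.0% of those with none within 50 kb. From 4 to under 6 kb in width the shares were 56.6% and 58.2%, and from 6 to under 8 kb they were 81.4% and 79.6%. Under 2 kb they were 11.5% (7.84% to 16.5%) and 3.23% (2.35% to 4.41%). From 2 to under 4 kb they were 28.4% (24.7% to 32.4%) and 18.2% (16.3% to 20.3%), and at 12 kb or more 98.6% (97.2% to 99.3%) and 91.5% (85.8% to 95.1%).

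Chromosomes differed in how much of their H3K4me3 carried MINA. The share was highest on chromosomes 19 (86.7%), 17 (75.7%) and 16 (71.3%), and lowest on X (31.8%), 18 (35.6%) and 15 (39.2%). H3K4me3 was wider on the first group, with medians of 8.4, 7.4 and 6.2 kb, than on the second, with 3.8, 3.8 and 4.7 kb. The share that the H3K4me3 widths of a chromosome and the genome-wide share of each width class would give was 76.9% for chromosome 19, 68.9% for 17, 63.1% for 16, 43.1% for X, 42.8% for 18 and 52.1% for 15. These shares kept chromosomes 19, 17 and 16 above X, 18 and 15, but 4 chromosomes lay more than 5 percentage points above the share set by width and 5 lay more than 5 below it.

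Chromosome 15 was the only 1 of 23 chromosomes where the KO share was higher than the WT share. KO MINA lay on 43.7% of its 627 KO H3K4me3 intervals, and WT MINA on 39.2% of its 590 WT ones (35.3% to 43.1%). No Wilson interval was computed for the KO share, and whether the difference exceeds counting error was not tested. On chromosome X the values were 27.6% in KO and 31.8% in WT, and on chromosome 19 they were 46.7% in KO and 86.7% in WT. Few MINA intervals of chromosomes 15 and X lay elsewhere, as 85.9% of the 277 on chromosome 15 and 86.0% of the 228 on X were on H3K4me3. On chromosome 22 it was 57.7% of 603.

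**Figure D5:**
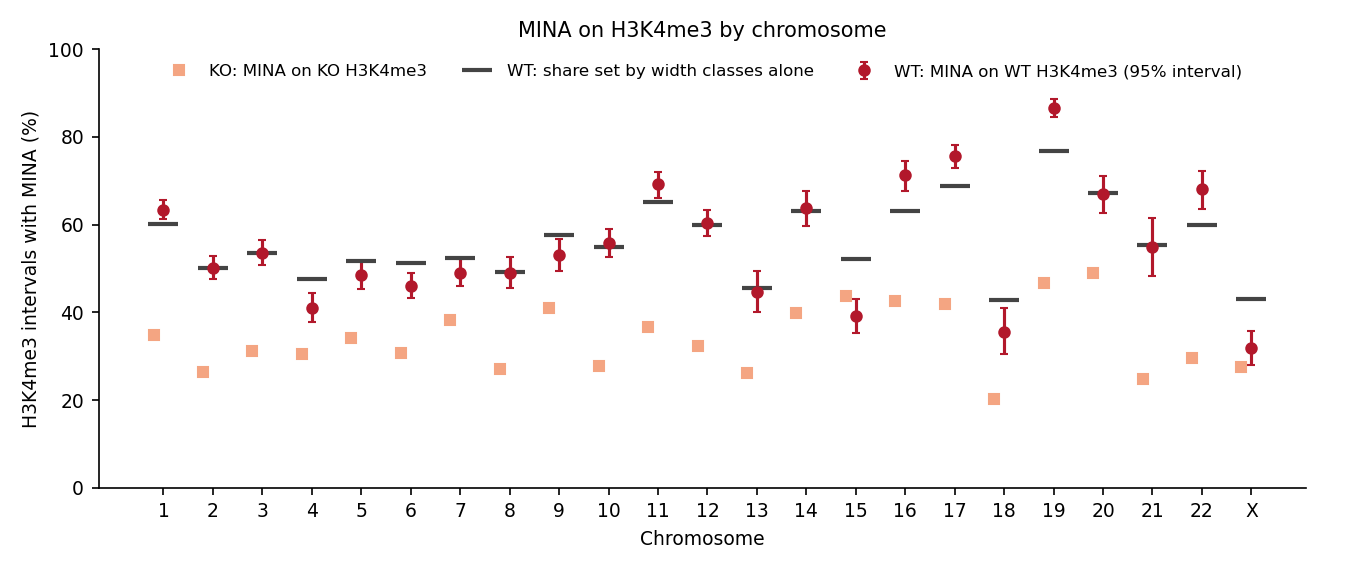
The share of H3K4me3 intervals with MINA (percent) on each chromosome in KO and in WT cells, with 95% Wilson intervals as bars for WT, and the WT share set by H3K4me3 width classes alone as a dash. Chromosome 19 is highest in WT at 86.7% and X lowest at 31.8%, and on chromosome 15 the KO square lies above the WT point.

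Single regions show the range of these placements, with coordinates on hg19. The 3 widest MINA intervals inside H3K4me3 were chr10:104152601-104199000, of 46.4 kb in a 50.6 kb H3K4me3 interval, chr19:55971001-56003800, of 32.8 kb in 38.4 kb, and chr11:67028201-67060000, of 31.8 kb in 35.2 kb. The widest spanning interval was chr17:79036401-79118400, with 82.0 kb over an H3K4me3 interval of 15.0 kb. Another, chr17:18860001-18928600, had 68.6 kb over 8.6 kb. The pair with the largest offset, of 29200 bp, was on chromosome 1, where MINA at chr1:2394001-2469600 ran 75.6 kb and met H3K4me3 of 18.8 kb at chr1:2451601-2470400 with its upper end. At chr20:61141401-61209800 a MINA interval of 68.4 kb was offset by 24800 bp from H3K4me3 of 10.4 kb, and at chr15:42112401-42175800 one of 63.4 kb was offset by 24600 bp from H3K4me3 of 11.8 kb. The next widest intervals past 1 edge were chr17:43165401-43227800, of 62.4 kb, and chr3:52518801-52574400, of 55.6 kb.

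Some wide H3K4me3 intervals held no MINA. Of the 1672 intervals of 12 kb or more 1626 had it. The widest without MINA were chr11:122021401-122053200 of 31.8 kb, chrX:45615201-45640600 of 25.4 kb and chr10:95227601-95245000 of 17.4 kb. All 3 were called for H3K4me3 in KO cells too and touched H3K36me3, and the first also touched H4K20me3.

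The 4631 MINA intervals off H3K4me3 were wider than the others, with a median of 6.0 kb against 4.2 kb on H3K4me3. Their median distance to the nearest H3K4me3 interval was 13.6 kb (quartiles 5.0 and 32.6 kb), with 264 (5.70%) within 1 kb and 2853 (61.6%) within 20 kb. They overlapped KO MINA in 8.29% of cases, against 50.9% for those on H3K4me3. For H3K36me3 the shares were 35.5% off and 48.7% on H3K4me3, for H3K9me3 they were 15.1% and 5.78%, and for H4K20me3 12.9% and 11.3%. By choice none of them touched H3K4me3, and H3K36me3, H3K9me3 and H4K20me3 of WT cells were all absent as well at 2147 of them (46.4%). The matching share for MINA on H3K4me3 was not computed. The widest MINA interval off H3K4me3 was chr11:2000801-2061600, of 60.8 kb, on H3K9me3 of both genotypes. The next were chr17:27403801-27462000, of 58.2 kb on H3K36me3, and chr16:88531801-88583600, of 51.8 kb on H3K9me3 and also called for MINA in KO.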

How the data were processed

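ChIP-seq interval lists of MDA-MB-231 cells were used as deposited by the authors, 1 list per library. Per the submitters' processing notes, reads were aligned with BWA to hg19 and intervals called with SICER 1.1. SICER's settings and any use of the input library were not given in the sources used here. Deposited values are other than counts, namely chromosome, start and end, with no score. All starts and ends fit a 200-bp grid, and the smallest gap within a list was 800 bp. A merged list of 92233 regions was not used.

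Overlaps (1 bp or more), one-to-one pairs, offsets and covers were computed in Python 3.11.15 (numpy 2.4.6, scipy 1.17.1), checked on simulated lists, and drawn with matplotlib 3.10.9. Counts of overlapping intervals from bedtools 2.31.1 were the same (11722 and 10916). Shares have 95% Wilson intervals. With 1 library per antibody and genotype no test was possible and no p-value is given. Regions were named as the 3 most extreme of each kind of placement, offset or multiplicity and the 3 widest intervals of each list without the other, and chromosomes as the 3 highest and 3 lowest, with ties broken by order in the list and 1 region not reported here. The members, lists and rules were chosen with earlier results of these data known. An hg19 genome or annotation was not used here, so no gene or sequence is given. Coordinates are 1-based.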

Additional observations from a re-analysis of the deposited data

How the results depend on the processing

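Of 53 alternative values of 11 results, 24 lay within the Wilson interval (for the median offset, at the same value) of the value reported and 29 outside it. Without the MINA intervals also called in KO, MINA on H3K4me3 was 57.5% in place of 71.7%, H3K4me3 with MINA 28.6% in place of 56.8%, the class of 12 kb or more 44.4% in place of 97.2%, inside 54.2%, spanning 18.4%, past 1 edge 27.1% and the median offset 900 bp. In an alternative chosen after seeing the data, the central window share without them was 22.7% in place of 48.3%. Reading the central window gave 48.3% for all widths and 80.7% at 12 kb or more. Merging intervals within 5 kb gave 77.8% of MINA on H3K4me3, 94.99% at 12 kb or more and an offset of 900 bp. Asking for 50% of the shorter interval gave 68.5%, and leaving out intervals under 2 kb gave 69.9% and an offset of 900 bp. On the autosomes alone 57.6% of H3K4me3 held MINA. By quintiles of width the narrowest held 9.14% and the widest 94.2%. When edges within 400 bp counted as the same, inside was 67.2%, spanning 15.4%, past 1 edge 14.6% and same edges 2.84%. When each MINA interval was set against its largest overlap, these were 59.2% inside, 12.4% spanning and 28.2% past 1 edge, the offset was 1100 bp, and 38.7% lay toward H3K36me3 in place of 35.9%. Without H3K4me3 of 12 kb or more, also chosen after seeing the data, 34.2% did. No paired analysis was possible because each antibody had 1 library per genotype and the labels carry no replicate numbers. Read depth is unknown, and a weak region may be missing from either list.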
